A study of Sus scrofa with 30 samples.

Results

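The transcripts described here were assembled from the RNA-seq reads of the sow mammary gland and carry no reference name. They are the rows whose identifier starts with MSTRG and whose mean was 200 or more in at least 1 of the 5 stages. By this rule 139 transcripts from 80 assembled loci were chosen, of 29047 assembled transcripts in 11061 loci and of 61773 transcripts in the whole table. Values are on the TPM scale, in which a transcript's reads are divided by its length and samples sum to nearly the same total. The authors call the values FPKM, but each of the 30 samples sums to between 997480 and 1002643, as TPM do. The table holds no counts of reads per transcript. The study lists the reads of each library, but these totals and its count matrix are not used here, so no value carries a counting interval.

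The samples were frozen mammary parenchyma of multiparous Danish Landrace×Yorkshire half-sibling sows, 6 per stage. Gestating sows were sampled at day 70 (MG, mid-gestation) or day 110 (LG, late gestation). Lactating sows were sampled at 2 days (EL, early lactation) or 10 days (PL, peak lactation) after farrowing, and weaned sows 2 days after weaning (W2). The labels name no treatment, and different sows were sampled at each stage. In the sample labels, the stage field names early lactation for the samples titled MG and mid-gestation for those titled EL, and the titles were followed here. Every comparison that involves MG or EL depends on that choice. As titled, CSN1S2, an alpha-S2 casein, was at 255, 23.2 and 681 in MG and 1442, 29843 and 13852 in EL, and LALBA, the alpha-lactalbumin of lactose synthesis, at 94.1, 6.6 and 66.7 in MG and 151, 2501 and 1988 in EL. For both genes every sample titled EL lay above every sample titled MG among the 3 per stage counted below, while WAP, the whey acidic protein, overlapped between the titles.

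In each stage 3 of the 6 samples were near copies of the mean of the other 3. Within a stage, any 2 of the copies differed by a median of at most 1.85% over transcripts with a stage mean of 10 or more, against 19.6% to 59.8% between the other samples. All values below therefore rest on 3 counted samples per stage, 15 in all, namely MG 1, 3 and 6, LG 1, 3 and 4, EL 3, 4 and 6, PL 2, 3 and 6, and W2 2, 3 and 6. Values of a stage are given in that order. Sample PL 2 stood apart, with the highest milk protein sum (407072, against 104466 to 254699 in the samples of the other 4 stages) and the lowest median over the 139 transcripts (116, against 141 to 225 in the other 14 samples). The milk protein genes CSN1S1, CSN1S2, CSN2, CSN3, LALBA, WAP and PAEP were above 1 in every sample.

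A transcript assembler such as StringTie joins aligned reads into transcript models and gives the name MSTRG to every model that it cannot equate with an annotated transcript. The first number names the assembled locus and the last number the isoform. Such a model may be an unannotated gene, an unannotated isoform of a known gene, or an incomplete or merged copy of one, and the identifier alone does not tell which. Isoforms of a locus share sequence, so that a read can often be assigned to any of several isoforms. Sums over the MSTRG isoforms of a locus take in the reads of all these isoforms. They still depend on how reads are divided where the isoforms differ in length, since reads are divided by length. Reads may also be divided between a model and an annotated transcript of the same gene, which the sums leave out. The table gives neither sequence nor position for these models, and none is printed.

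Of the 80 loci, 58 contributed 1 transcript and 22 contributed 2 or more, 81 transcripts together. The largest was MSTRG.6736 with 15 of its 41 isoforms, followed by MSTRG.10841 with all 9 of its isoforms, MSTRG.2267 with all 6, and MSTRG.20137 and MSTRG.16157 with 5 each. The highest stage mean of a chosen transcript had a median of 388 and was 1000 or more in 28 and 10000 or more in 3. Just inside the threshold lay MSTRG.6736.38 (201 in PL), MSTRG.16484.1 (205 in LG) and MSTRG.15289.2 (206 in EL). Just outside lay MSTRG.6736.15 (199 in PL), MSTRG.17598.4 (199 in W2) and MSTRG.11277.1 (196 in MG).

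The level reached 200 in all 5 stages for 34 of the 139 transcripts and in a single stage for 54. That single stage was PL for 26 transcripts, MG and W2 for 8 each, and LG and EL for 6 each. The stage of the highest mean was W2 for 39, PL for 37, MG for 27, LG for 21 and EL for 15. At the lower end, 53 were lowest in PL and 41 in W2. The transcripts highest in PL included 12 from MSTRG.6736, 6 from MSTRG.2267 and 6 from MSTRG.10841. Counted by locus, 34 loci were highest in W2 and 12 in PL, while 45 of the 80 were lowest in PL. Since these means chose the transcripts, they are a description. The mean over all 15 samples was 200 or more for 77 of the 139, and 50 were listed at 0 in at least 1 sample.

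**Figure D1:**
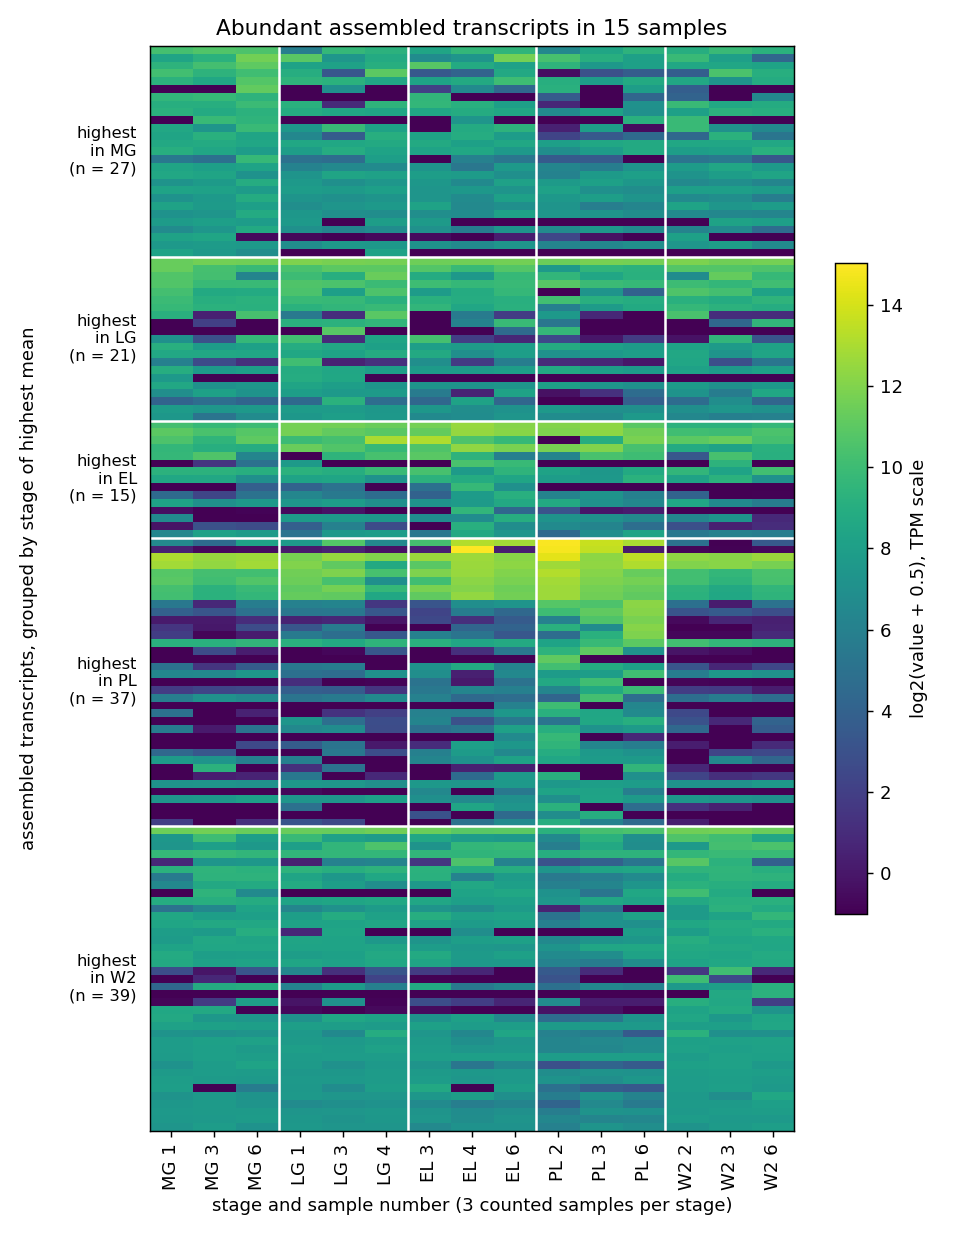
Heat map of log2(value + 0.5) for the 139 transcripts (rows) in the 15 counted samples (columns), with rows grouped by the stage of the highest mean and ordered by it. Many rows of the block highest in PL are dark in MG and W2. Isolated dark cells beside bright cells of the same stage are the transcripts listed near 0 in 1 sample and high in another.

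Together the 139 transcripts held 12.2% ± 3.77 of the sample total at peak lactation (PL) and 9.41% ± 2.99 at early lactation (EL). Their share was 6.63% ± 0.594 and 6.50% ± 0.138 in gestation (MG and LG) and 5.87% ± 0.339 after weaning (W2) (mean ± SD, n = 3). The PL samples held 16.6%, 10.1% and 9.94%. Without the 3 loci MSTRG.10840, MSTRG.10841 and MSTRG.10844 the stage means of this share lay between 3.90% (EL) and 4.44% (MG). The 418 reference transcripts chosen by the same level rule held 57.7% to 64.0%, as stage means.

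MSTRG.10841 was the most abundant locus. Its 9 isoforms summed to 25871, 17784 and 21694 in MG, 26974, 25960.3 and 12569.7 in LG, 26765, 51154 and 35977 in EL, 69638, 39514 and 36778 in PL and 15186, 13657 and 16848 in W2. All PL samples lay above all samples of MG, LG and W2, and the W2 samples lay below those of EL and PL. In limma fits on log2(sum + 0.5), with 3 samples per stage, the locus was higher in PL than in MG (log2 fold change 1.11, SE 0.33, adjusted p = 0.028) and in LG (log2 fold change 1.17, SE 0.33, adjusted p = 0.0333). The call against MG was lost without MG 3, MG 6 or PL 2 (adjusted p = 0.0713 to 0.108), and that against LG was lost without LG 4 or PL 2 (adjusted p = 0.115 to 0.136). The locus was lower in W2 than in PL (log2 fold change -1.62, SE 0.33, adjusted p = 0.00351), also with any 1 of the 15 samples left out. In bulk tissue such differences cannot tell fewer cells of a type from less RNA per cell. The milk protein sum moved with it, from 225334 to 407072 in PL and from 104466 to 138449 in W2, and its part in the result was not tested. Over the 15 samples, r of the log2 locus sum was 0.38 with PAEP and 0.41 with CSN1S1. With CSN1S2, CSN2, CSN3, LALBA and WAP it was 0.853 to 0.954.

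Isoform 9 of MSTRG.10841 was at 1204, 860.4 and 1013 in MG, 3231, 3196 and 2607 in LG, 3359.8, 6023 and 4383 in EL, 4196, 5006 and 1959 in PL and 645, 624 and 836 in W2. Every LG, EL and PL sample lay above every MG and W2 sample. It was higher in EL than in MG (log2 fold change 2.13, SE 0.30, adjusted p = 0.037) and in PL than in MG (log2 fold change 1.76, SE 0.30, adjusted p = 0.00661). In W2 it was lower than in LG (log2 fold change -2.11, SE 0.30, adjusted p = 0.0423), EL (log2 fold change -2.68, SE 0.30, adjusted p = 0.0046) and PL (log2 fold change -2.31, SE 0.30, adjusted p = 0.0012). The difference between EL and MG was lost without MG 3, MG 6, LG 1, LG 3, LG 4, EL 4, EL 6, W2 2, W2 3 or W2 6 (adjusted p = 0.0532 to 0.0904), and that between W2 and LG was lost without MG 1, MG 3, MG 6, LG 1, LG 3, EL 3, EL 4, EL 6, PL 2, W2 2 or W2 3 (adjusted p = 0.0512 to 0.0931).

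Isoforms 3, 5, 6, 7 and 8 were also lower in W2 than in PL, with log2 fold changes of -1.72 (SE 0.32, adjusted p = 0.00715), -2.71 (SE 0.47, adjusted p = 0.00575), -2.62 (SE 0.52, adjusted p = 0.0107), -2.71 (SE 0.64, adjusted p = 0.0243) and -2.13 (SE 0.45, adjusted p = 0.0152) in that order. Of these, isoform 6 lost the call without W2 3 (adjusted p = 0.0528), isoform 7 without PL 2, W2 2, W2 3 or W2 6 (adjusted p = 0.0588 to 0.0962) and isoform 8 without PL 2 or W2 3 (adjusted p = 0.0524 to 0.0698). Against MG, isoforms 5, 6 and 8 were higher in PL by 2.06 (SE 0.47, adjusted p = 0.0283), 2.20 (SE 0.52, adjusted p = 0.032) and 1.78 (SE 0.45, adjusted p = 0.0453). These calls were lost for isoform 5 without MG 3, MG 6, PL 2 or PL 3 (adjusted p = 0.0501 to 0.128), for isoform 6 without MG 1, MG 3, MG 6, LG 3, EL 6, PL 2, PL 3 or W2 2 (adjusted p = 0.0511 to 0.117) and for isoform 8 without MG 1, MG 3, MG 6, LG 1, LG 3, EL 3, EL 4, EL 6, PL 2, PL 3, W2 2, W2 3 or W2 6 (adjusted p = 0.0515 to 0.153). Isoforms 1, 2 and 4 did not pass the test between PL and W2, at -0.97 (SE 0.39, adjusted p = 0.156), -0.77 (SE 0.63, adjusted p = 0.499) and -2.16 (SE 0.87, adjusted p = 0.162). Isoform 1, which had the highest mean of the 9 in PL, was at 21611, 5116 and 11036 in PL and 5386, 4708 and 6345 in W2, and these samples overlapped.

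The division of the locus among its isoforms differed between stages as well. Isoforms 1 and 2 took 32.5% ± 1.71 and 30.5% ± 2.87 of the locus sum in MG and 35.9% ± 1.63 and 27.3% ± 6.94 in W2. In EL they took 16.7% ± 6.37 and 11.3% ± 3.4 (mean ± SD, n = 3). Isoform 9 took 15% ± 4.97 in LG, 12.2% ± 0.39 in EL and 8.01% ± 4.05 in PL, against 4.72% ± 0.103 in MG and 4.59% ± 0.358 in W2. The share of isoform 9 was at least 11.8% in every LG and EL sample and at most 4.96% in every MG and W2 sample. The PL samples were at 6.03, 12.7 and 5.33%.

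**Figure D2:**
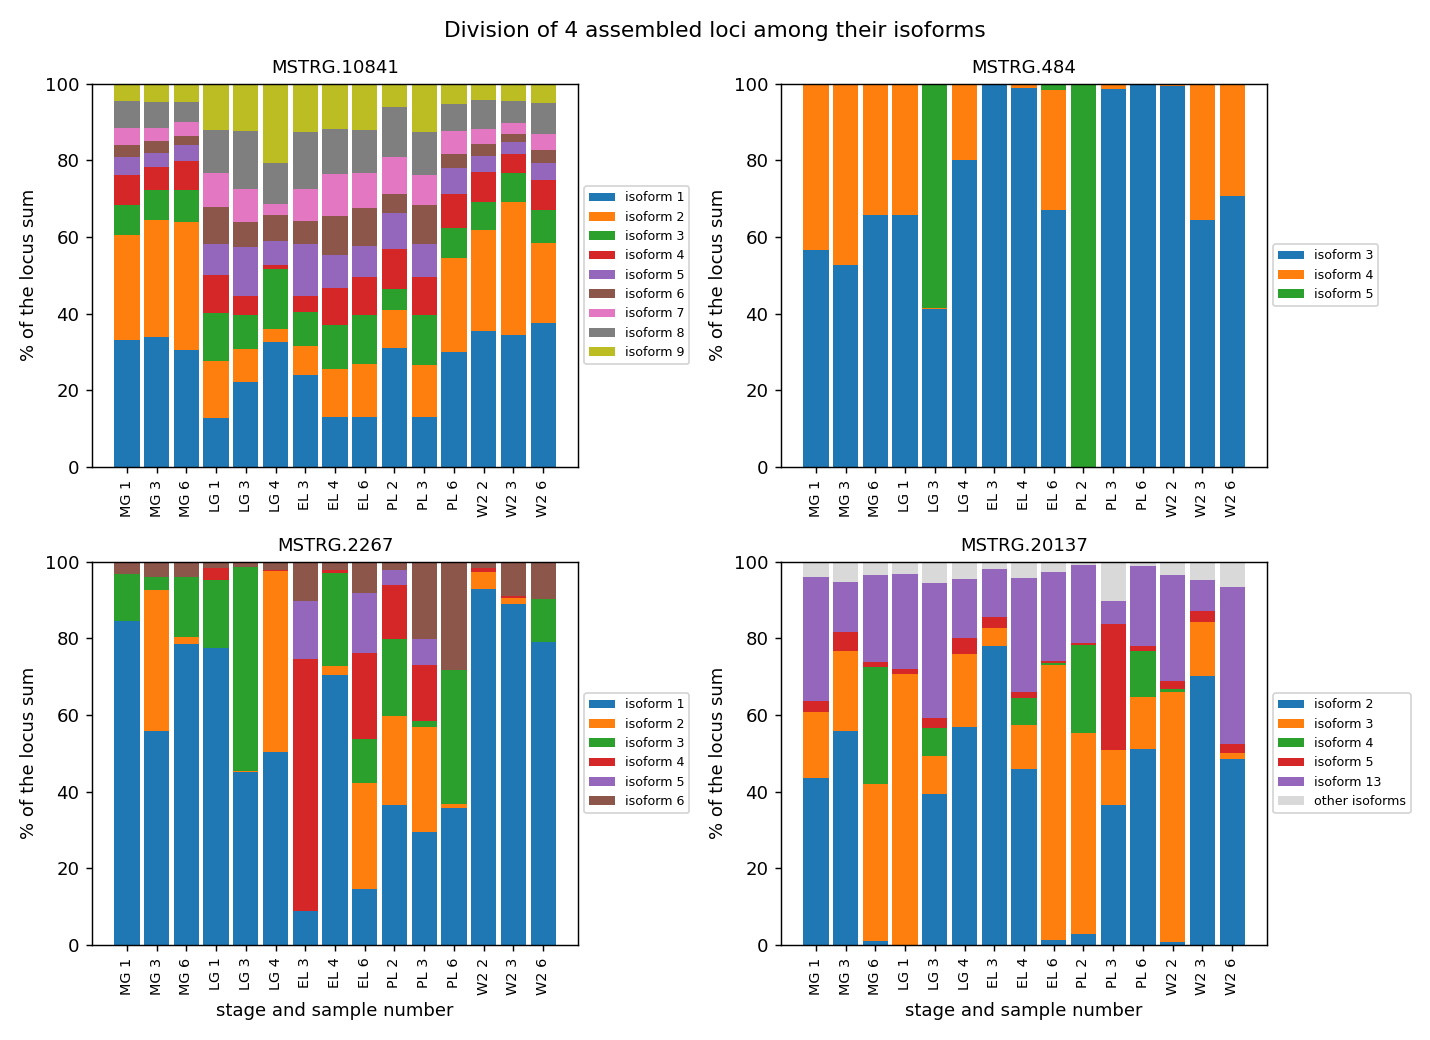
Share of each isoform in the sum of its locus (percent, stacked bars) in each of the 15 counted samples for MSTRG.10841, MSTRG.484, MSTRG.2267 and MSTRG.20137. The colours of MSTRG.10841 change by stage, with isoforms 1 and 2 filling more of the bars in MG and W2. In MSTRG.484 the PL 2 bar is isoform 5 alone, and in MSTRG.20137 the leading isoform differs between samples of the same stage.

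MSTRG.10844.3, the only isoform of its locus in the table, had the highest stage mean of all. It was at 93.7, 23.7 and 291 in MG, 194, 1724 and 92 in LG, 1278, 9430.5 and 7057 in EL, 31150.1, 13023 and 8144 in PL and 31.8, 0 and 10.7 in W2. All PL samples but PL 6 lay above all other samples, and PL 6 lay below EL 4. Its level was 200 or more on average in both LG and PL. Among all transcripts it did not pass the test between them (log2 fold change 5.57, SE 1.49, adjusted p = 0.0765, limma). The same values among the locus and gene sums passed (log2 fold change 5.57, SE 1.51, adjusted p = 0.0291), and that call was lost without LG 1, LG 4 or PL 2 (adjusted p = 0.0894 to 0.12). Over the 15 samples its log2 values ran most closely with CSN1S2 (r = 0.977), LALBA (r = 0.946) and CSN3 (r = 0.944), kappa-casein. These correlations are descriptions over 15 samples that share the stages. In PL and W2 its values were below those of CSN1S2, which was at 84151, 47887 and 32080.2 in PL and 39.3, 9.95 and 17.2 in W2.

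MSTRG.10840.2 had the second highest stage mean and was present in 3 samples only. It was at 33642 in EL 4, 29106 in PL 2 and 12066 in PL 3, and at 0.958 or less in each of the other 12. In EL the values were 0.842, 33642 and 0.788, so that its stage mean of 11214 describes none of them. Among reference transcripts with a mean of 10 or more, its log2 values were most like SELENOM (r = 0.915), a selenoprotein of the endoplasmic reticulum, and HMGCS1 (r = 0.858), an enzyme of cholesterol synthesis. The least like was a transcript of NAPA (r = -0.928). With values of this on and off kind, r depends on 3 samples.

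The 41 isoforms of MSTRG.6736, of which 15 were chosen, summed to 250.2, 27.2 and 135 in MG, 667, 712 and 52.6 in LG, 484, 5386 and 2913 in EL, 12694, 3338 and 2523 in PL and 78.7, 11.4 and 66.8 in W2. Every PL sample lay above every LG sample, and the PL samples overlapped those of EL. Of its chosen isoforms 12 were highest in PL and 3 in EL. The levels in PL and EL chose them, so the difference from LG has no test here. Over the 15 samples the sum ran with LALBA (r = 0.987), which was at 151, 2501 and 1988 in EL and 30875, 6565 and 2041 in PL.

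No single isoform of MSTRG.6736 carried this pattern. Isoform 14 was at 2257 in PL 2 and listed at 0 in the other 14 samples, and isoform 16 was at 1055 in PL 2 and at 83.5 or less elsewhere. Isoform 4 was at 31.2, 869.9 and 132 in EL and 0, 0 and 0.0133 in PL. Isoform 1 was at 0.0414, 739 and 19.8 in EL, where 1 sample of 3 carried it. Isoform 7 was spread more evenly, at 65.7, 63 and 183 in EL and 592, 363 and 101 in PL. Between pairs of the 15 chosen isoforms r ranged from -0.20 to 0.92, with a median of 0.54 over 105 pairs. The remaining members of the locus were isoforms 5, 6, 9, 10, 18, 20, 35, 36, 38 and 42, with highest stage means between 201 and 319.

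MSTRG.9407, with 2 chosen isoforms, had the same order of stage means, at 168, 669.8 and 632 in EL, 1376, 672 and 340.2 in PL and 25.7, 1.18 and 4.99 in W2 as a locus sum. Isoform 1 was at 1139.8, 476 and 275 in PL, and isoform 3 at 16.2, 223 and 557 in EL. The sum was most like CSN1S2 (r = 0.981). Among the 3160 pairs of the 80 loci, MSTRG.9407 and MSTRG.10844 had r = 0.976, MSTRG.6736 and MSTRG.9407 had r = 0.973, and MSTRG.6736 and MSTRG.10841 had r = 0.957.

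**Figure D3:**
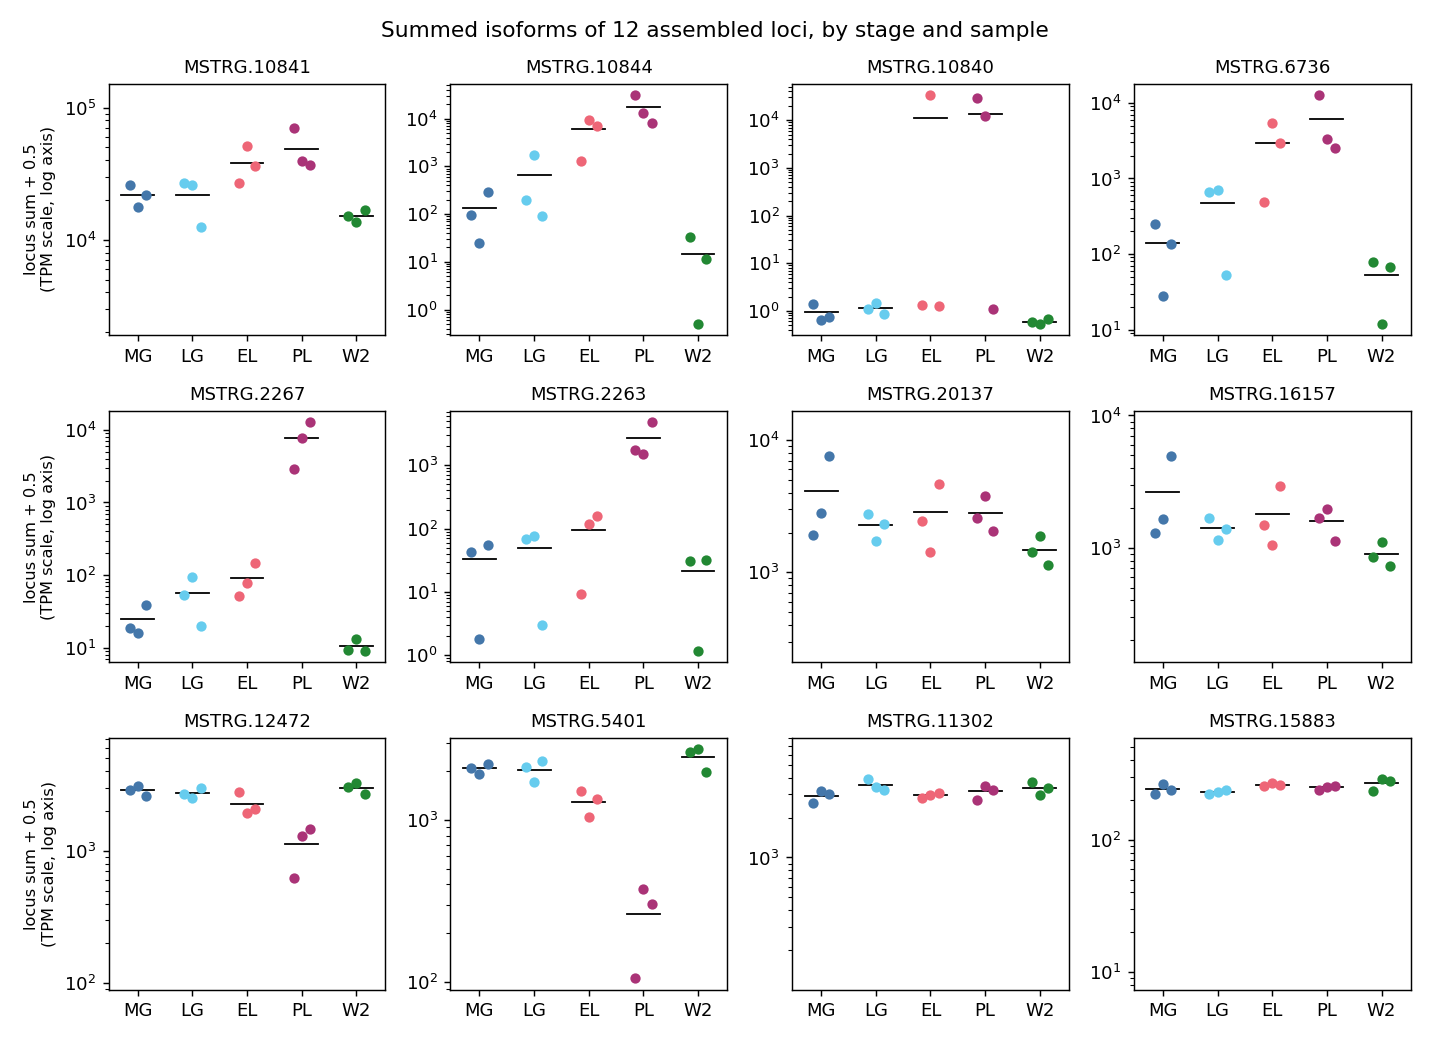
Summed isoforms of 12 loci (TPM scale plus 0.5, log axis) in the counted samples of each stage, with points for samples and black lines for stage means. MSTRG.10844, MSTRG.6736, MSTRG.2267 and MSTRG.2263 span orders of magnitude between W2 and PL, MSTRG.10840 is either near 1 or above 10000, MSTRG.12472 and MSTRG.5401 dip in PL, and MSTRG.11302 and MSTRG.15883 are flat.

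In 4 further loci, MSTRG.2267, MSTRG.2263, MSTRG.7291 and MSTRG.18465, no stage other than PL reached a mean of 200. MSTRG.2267 summed to 18.4, 15.5 and 39 in MG, 53.3, 94.4 and 19.3 in LG, 51, 76.5 and 145 in EL, 2896, 7702 and 12694 in PL and 8.94, 12.9 and 8.56 in W2. The lowest PL sample lay above the highest sample of any other stage. This difference chose its isoforms and has no test here. The sum was most like SAA3 (r = 0.982), an acute-phase serum amyloid A made by the mammary epithelium, LBP (r = 0.963), the lipopolysaccharide-binding protein, and NUPR1 (r = 0.957), a stress-responsive nuclear protein. SAA3 itself was at 625, 1954 and 1980.2 in EL and 27299.8, 41008 and 40003 in PL.

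The PL samples divided MSTRG.2267 differently. Isoform 1 was at 1061, 2265 and 4538, isoform 6 at 66.2, 1557 and 3592 and isoform 3 at 588, 113 and 4434 in PL. Isoform 2 was at 665, 2122 and 129.8 and isoform 4 at 402, 1132 and 0. Isoform 5 was at 114, 514 and 0, and it and isoform 4 were listed at 0 in PL 6, where isoforms 1, 3 and 6 were highest.

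MSTRG.2263.1 was at 8.94, 119 and 156 in EL and 1773, 1535 and 4789 in PL, and was most like WAP (r = 0.911). MSTRG.7291.3 was at 67, 34.9 and 9.86 in EL and 26.2, 573 and 3952 in PL, and was most like MGP (r = 0.94), the matrix Gla protein. MSTRG.18465.1 was at 42.9, 77.2 and 62.3 in EL and 79.1, 425 and 968 in PL, and was most like NUPR1 (r = 0.945). In all 3, PL 2 or PL 3 was the lowest PL sample and PL 6 the highest. Neutrophil markers S100A8, S100A9 and S100A12 summed to 9.09 to 46.4 in PL and to 2.03 or less in the other stages, and skeletal muscle MYH2 was at 2.70 to 13.0 in PL and 0.884 or less elsewhere. Their part in these results was not tested.

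In MSTRG.20137 and MSTRG.16157 single sows of a stage stood far from the others. MSTRG.20137 summed to 1921, 2825 and 7578 in MG, 2776, 1720.4 and 2335 in LG, 2466, 1434 and 4675 in EL, 2567, 3759.9 and 2055 in PL and 1424, 1874 and 1131 in W2. MSTRG.16157 was at 1288, 1637 and 4931 in MG, 1677, 1150.0 and 1378 in LG, 1484, 1046 and 2909.6 in EL, 1690.0, 1974 and 1124 in PL and 849.7, 1107 and 729 in W2. Both were highest in MG 6 and next in EL 6, and their sums had r = 0.985. Neither locus passed the test in any of the 10 comparisons in which both stage means were 200 or more. Both were most like JCHAIN, the joining chain of polymeric antibodies made by plasma cells (r = 0.952 and 0.967), as was MSTRG.4314 (r = 0.885), of whose 49 isoforms 1 was chosen. JCHAIN was at 670.2, 1076 and 2838 in MG and 922, 636 and 1679 in EL. Of the other lymphocyte markers, CD3E, CD2 and CD79A were below 11.3 in every sample, and MS4A1 was not in the table.

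Within MSTRG.20137 different isoforms led in different sows. In MG isoform 2 was at 838, 1574 and 76.6, isoform 3 at 328, 594 and 3110.2 and isoform 4 at 0, 0 and 2318. In EL isoform 2 was at 1925, 656 and 59.7 and isoform 3 at 112, 167 and 3360.0. Isoform 13 was present in every sample (152 to 1708), whereas isoform 5 was at 1233 in PL 3 and at 138 or less elsewhere. Pairs of the 5 isoforms had r from -0.59 to 0.54, while 4 of the 5 chosen isoforms of MSTRG.16157, numbers 18, 20, 22 and 23, were all highest in MG 6, at 455, 491, 422 and 475. Isoform 14 of that locus was listed at 0 in MG 3 and MG 6.

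Another group of loci was lower in PL than in MG. Most of them were also higher in W2 than in PL, and part of them lower in PL than in LG or EL. MSTRG.12472.1 was at 2879, 3109 and 2611 in MG, 2709, 2495 and 2979.9 in LG, 2781, 1942 and 2073 in EL, 619, 1291 and 1467 in PL and 3027, 3284 and 2690.1 in W2. Every PL sample lay below every sample of the other stages. It was lower in PL than in MG (log2 fold change -1.44, SE 0.26, adjusted p = 0.00787) and LG (log2 fold change -1.37, SE 0.26, adjusted p = 0.0155), and higher in W2 than in PL (log2 fold change 1.50, SE 0.26, adjusted p = 0.00494). The difference from LG was lost without LG 1 or LG 4 (adjusted p = 0.0613 to 0.0795). Against EL the transcript did not pass (log2 fold change -1.09, SE 0.26, adjusted p = 0.0877). MSTRG.5955.2 moved with it (r = 0.992 between the loci), at 604, 693 and 603 in MG, 165, 334 and 354 in PL and 697, 729 and 541 in W2, with log2 fold change -1.23, SE 0.25, adjusted p = 0.0157 against MG, log2 fold change -1.19, SE 0.25, adjusted p = 0.028 against LG and log2 fold change 1.27, SE 0.25, adjusted p = 0.0103 between W2 and PL. For MSTRG.5955.2 the difference from MG was lost without MG 3 (adjusted p = 0.071) and that from LG without LG 1, LG 3 or LG 4 (adjusted p = 0.0551 to 0.108). Against EL it did not pass (log2 fold change -0.94, SE 0.25, adjusted p = 0.138). The reference transcript nearest to MSTRG.5955 was RPL39 (r = 0.993), a protein of the large ribosomal subunit.

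MSTRG.5401 fell the furthest in PL among the locus sums that passed the test. Its 18 isoforms summed to 2107, 1923 and 2225 in MG, 2123, 1707 and 2308 in LG, 1513, 1038 and 1346 in EL, 104, 375 and 303 in PL and 2616, 2732 and 1972 in W2. The PL samples did not overlap any other stage. In PL the sum was lower than in MG (log2 fold change -3.19, SE 0.36, adjusted p = 0.00021), LG (log2 fold change -3.15, SE 0.36, adjusted p = 0.00038) and EL (log2 fold change -2.49, SE 0.36, adjusted p = 0.00312). In W2 it was higher than in PL (log2 fold change 3.40, SE 0.36, adjusted p = 0.000125). Its 3 chosen isoforms divided the sum unevenly, as isoform 18 was at 1218, 428 and 443 and isoform 12 at 47.9, 658 and 673 in MG. Isoform 13 was at 20.5, 471 and 511 there. The sum was most like EIF3L (r = 0.988), a translation initiation factor, and RPL3 (r = 0.988), a ribosomal protein. All 4 of these differences also passed with any 1 of the 15 samples left out.

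MSTRG.16474 summed to 2718, 2075 and 1863 in MG, 2996, 1216 and 2134 in EL, 348, 769.8 and 978 in PL and 2844, 2974 and 1574 in W2, and was most like RPS3 (r = 0.964), a small subunit protein. The sum was lower in PL than in MG (log2 fold change -1.77, SE 0.40, adjusted p = 0.00771) and higher in W2 than in PL (log2 fold change 1.89, SE 0.40, adjusted p = 0.00407). Isoform 8 held most of it and was lower in PL than in LG (log2 fold change -2.04, SE 0.46, adjusted p = 0.0389) and higher in W2 than in PL (log2 fold change 1.89, SE 0.46, adjusted p = 0.0288). These calls were lost without MG 3, LG 1, LG 3, LG 4, EL 3, EL 6, PL 2, PL 6, W2 2, W2 3 or W2 6 (adjusted p = 0.0527 to 0.149) for LG and without PL 2, W2 2, W2 3 or W2 6 (adjusted p = 0.0751 to 0.0897) for W2. In W2, isoform 9 was at 1113, 444 and 0 and isoform 10 at 0.355, 742 and 8.54.

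Further locus sums lower in PL than in MG were MSTRG.9165, MSTRG.2204, MSTRG.514, MSTRG.4534, MSTRG.8456, MSTRG.20059, MSTRG.19278 and MSTRG.11270, with log2 fold changes from -1.90 (MSTRG.514) to -0.42 (MSTRG.19278). All of them but MSTRG.8456 were also higher in W2 than in PL. Against MG, the call was lost for MSTRG.514 without MG 1 or MG 3 (adjusted p = 0.057 to 0.0684), for MSTRG.4534 without MG 1, MG 3, MG 6, PL 2 or PL 3 (adjusted p = 0.0568 to 0.0851), for MSTRG.8456 without MG 1, MG 3, PL 2 or PL 3 (adjusted p = 0.0746 to 0.0966), for MSTRG.20059 without MG 3 (adjusted p = 0.0766), for MSTRG.19278 without MG 1 or MG 3 (adjusted p = 0.0577 to 0.106) and for MSTRG.11270 without MG 1, MG 3, PL 3 or PL 6 (adjusted p = 0.0619 to 0.0883). Between W2 and PL it was lost for MSTRG.514 without W2 2 or W2 3 (adjusted p = 0.0558 to 0.0668), for MSTRG.20059 without W2 6 (adjusted p = 0.0527) and for MSTRG.11270 without PL 3, PL 6, W2 2 or W2 3 (adjusted p = 0.0608 to 0.0834). MSTRG.9165 summed to 611, 551 and 635 in MG and 134, 312 and 200.5 in PL, and MSTRG.2204 to 1005, 618 and 672 in MG and 548, 338 and 274 in PL. Against EL, 5 of the locus sums lower in PL than in MG passed the test, namely MSTRG.5401, MSTRG.12472, MSTRG.16474, MSTRG.9165 and MSTRG.2204 (adjusted p = 0.00312 to 0.0366). MSTRG.5955, MSTRG.514, MSTRG.4534, MSTRG.8456, MSTRG.20059, MSTRG.19278 and MSTRG.11270 did not (adjusted p = 0.0521 to 0.815). Of the 5, only MSTRG.5401 passed with each of the 15 samples left out. The call was lost in 12 of these 15 fits for MSTRG.12472, 11 for MSTRG.16474, 11 for MSTRG.9165 and 5 for MSTRG.2204 (adjusted p = 0.05 to 0.163). MSTRG.514, MSTRG.20059 and MSTRG.19278 have a single isoform each, and among all transcripts these did not pass between PL and MG (adjusted p = 0.0622 for MSTRG.514.1, 0.0659 for MSTRG.20059.1 and 0.0901 for MSTRG.19278.1). MSTRG.514.1 did not pass between W2 and PL either (adjusted p = 0.0547). As single transcripts MSTRG.20059.1 (169, 372 and 306 in PL and 416, 547 and 575 in W2, log2 fold change 0.92, SE 0.25, adjusted p = 0.0424) and MSTRG.19278.1 (508, 670.0 and 666 and 795, 921 and 903, log2 fold change 0.51, SE 0.13, adjusted p = 0.031) passed between W2 and PL. The former was lost without MG 1, MG 3, MG 6, LG 1, LG 3, LG 4, EL 4, EL 6, PL 2, PL 6, W2 3 or W2 6 (adjusted p = 0.0528 to 0.135) and the latter without W2 3 or W2 6 (adjusted p = 0.0908 to 0.0956).

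On a scale with a fixed total, a larger share for some transcripts leaves less for all others. The milk protein sum was 225334 to 407072 in PL and 254699 or less elsewhere, and its part in the lower levels was not tested. Adipocyte markers (FABP4, LEP and CIDEC, without ADIPOQ and PLIN1, which are not in the table) summed to 253 to 388 in PL and 444 to 732 in the other stages, without overlap. FABP4 held nearly all of that sum, with stage means of 312 in PL and 538 to 684 elsewhere. LEP went the other way (10.7 in PL, 0.131 to 0.415 elsewhere), and CIDEC was at 2.53 in PL and 0.758 to 2.71 elsewhere. Fibroblast markers (COL1A1, COL3A1 and DCN) summed to 346 to 803 in PL and 651 to 2078 elsewhere, and macrophage markers (CD163 and CSF1R, without CD68, which is not in the table) to 1.99 to 11.7 in PL and 10.5 to 36.4 elsewhere, both with overlap. The part of these 3 lists was not tested either. Scaling instead by the median ratio of transcripts with 10 or more in every sample moved all log2 fold changes by 0.67 for PL against MG, 0.50 for PL against LG, 0.35 for PL against EL and -0.73 for W2 against PL. On that scale, MSTRG.5401 was lower in PL than in MG (log2 fold change -2.52, adjusted p = 0.000204), as were MSTRG.12472 (-0.77, adjusted p = 0.00803), MSTRG.9165 (-0.89, adjusted p = 0.0219), MSTRG.5955 (-0.56, adjusted p = 0.0396) and MSTRG.16474 (-1.11, adjusted p = 0.0485), while MSTRG.10841 was higher by 1.78 (adjusted p = 0.0209). MSTRG.514, MSTRG.4534, MSTRG.8456, MSTRG.20059 and MSTRG.2204 no longer passed (adjusted p = 0.101 to 0.574). Between W2 and PL the call was lost on that scale for MSTRG.9165, MSTRG.514, MSTRG.4534, MSTRG.20059 and MSTRG.2204 (adjusted p = 0.0701 to 0.423). Between PL and EL it was lost for MSTRG.9165 (adjusted p = 0.0677) and MSTRG.2204 (adjusted p = 0.251). As single transcripts, MSTRG.5955.2 no longer passed against MG, against LG or between W2 and PL (adjusted p = 0.0534 to 0.105), nor MSTRG.16474.8 against LG (0.0751) or between W2 and PL (0.154), nor MSTRG.20059.1 between W2 and PL (0.533). MSTRG.10841.9 lost its calls between EL and MG (0.0529) and between W2 and LG (0.0836). MSTRG.19278 and MSTRG.11270 changed sign between PL and MG (0.25 and 0.05) and between W2 and PL (-0.22 and -0.14).

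**Figure D4:**
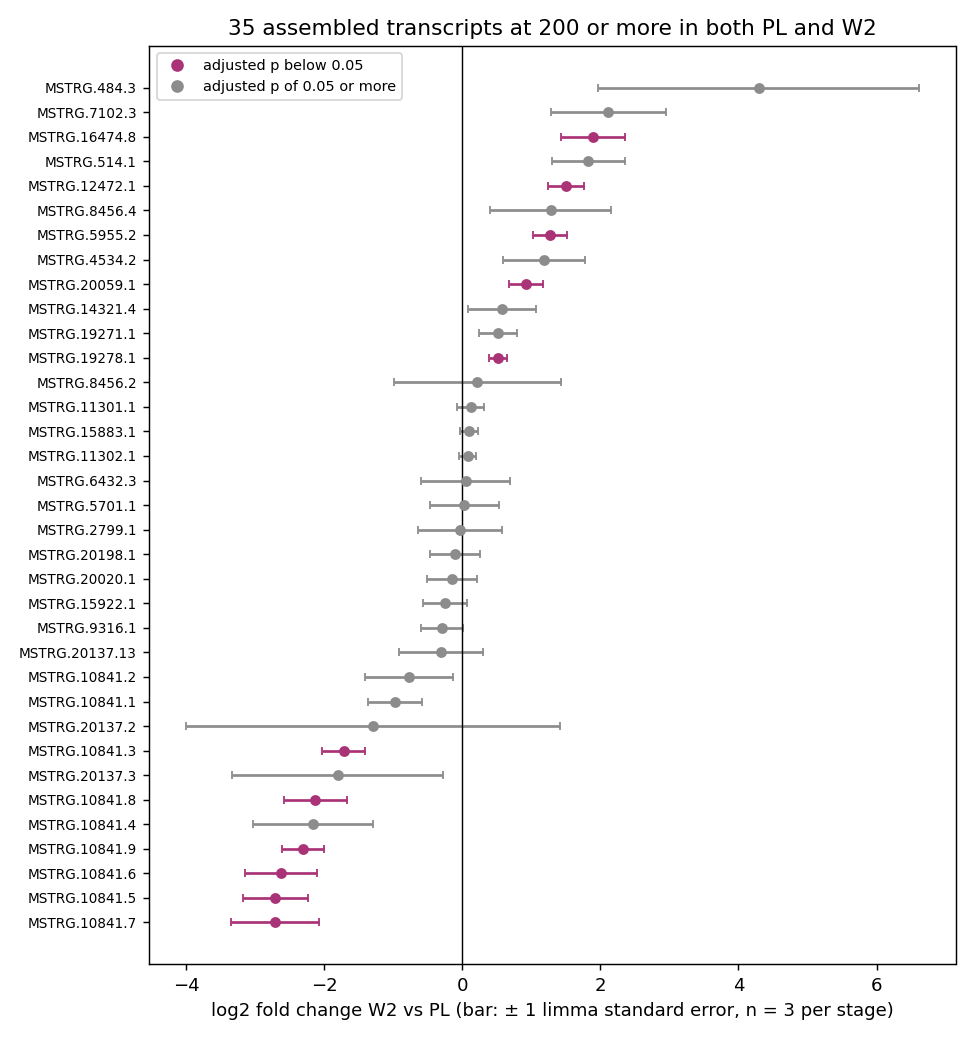
Log2 fold change of W2 against PL (limma on log2(value + 0.5), bars ± 1 standard error, 3 samples per stage) for the 35 transcripts whose mean was 200 or more in both stages and over all samples. Of the 11 with adjusted p below 0.05, the 6 lower in W2 are isoforms of MSTRG.10841 and the 5 higher in W2 lie between 0.51 and 1.89. MSTRG.484.3 and MSTRG.20137.2 have the widest bars.

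Across all 139 transcripts, 29 met an adjusted p below 0.05 with a log2 fold change of at least 2 either way between W2 and PL, where 2.84% of all 61773 transcripts did. On the same rule 20 did for PL against MG (1.76% of all), for PL against LG 10 (1.09%), for PL against EL 4 (0.408%), for W2 against EL 2 (0.0631%), and for EL against MG (0.0389%) and W2 against LG (0.0324%) 1 each. None did for LG against MG (0.0162%), W2 against MG (0.0275%) or EL against LG (0.0178%). Since the stage means chose the transcripts, nothing is read from these counts. Among transcripts at 200 or more in both compared stages, a test with adjusted p below 0.05 of any size was met by 11 of 35 for W2 against PL (background 7.13%), 6 of 37 for PL against MG (4.28%), 3 of 36 for PL against LG (2.26%) and 1 each of 54 for EL against MG (0.0405%), 60 for W2 against LG (0.0324%) and 55 for W2 against EL (0.0664%).

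In limma, 0 of 60 passed for LG against MG, 0 of 63 for W2 against MG, 0 of 52 for EL against LG and 0 of 37 for PL against EL. At an unadjusted p below 0.05 these counts were 5, 1, 3 and 5. For PL against EL the background was 0.698%. Between W2 and PL 115 of 210 reference transcripts passed (54.8%), 108 higher and 7 lower in W2, against 11 of 35 assembled ones (31.4%), 5 higher and 6 lower, where 6.38% of all transcripts were called higher and 0.751% lower. The median log2 fold change was 0.03 over the 35 and 0.98 over the 210. For PL against MG the counts were 6 of 37, 4 higher and 2 lower (0.531% and 3.75% of all transcripts). Among reference transcripts they were 110 of 215, 7 higher and 103 lower. The 4 higher in PL than in MG and the 6 lower in W2 than in PL are all isoforms of the single locus MSTRG.10841. Over the 34 transcripts at 200 or more in all 5 stages, the F test across stages passed for 7 (20.6%, background 2.6%), and over the 199 reference transcripts of that kind for 96 (48.2%). The difference between assembled and reference transcripts was not tested. When only the samples of the 2 compared stages were fitted, no assembled transcript at 200 or more in both passed in any of the 10 comparisons. The share over all transcripts in these fits is not given here, so nothing is read from this about the assembled transcripts.

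Counted by locus sums, of 35 loci at 200 or more in both PL and W2, 12 had adjusted p below 0.05 (34.3%), 11 higher and 1 lower in W2, where 32.8% of all 26012 locus and gene sums did (30.4% higher and 2.48% lower). For PL against MG 13 of 35 did, 1 higher and 12 lower (background 25.2%, with 2.23% higher and 23.0% lower), for PL against LG 12 of 36 (14.7%) and for PL against EL 5 of 39 (4.62%). The 12 for PL against LG include MSTRG.6736, whose isoforms were chosen by their levels in PL and EL. For the remaining 6 comparisons limma called none, with 2 to 10 loci at an unadjusted p below 0.05. The share over all sums at that unadjusted level is not given here, so nothing is read from the 2 to 10. At an adjusted p below 0.05 the background was 0.0115% for LG against MG and for W2 against MG. It was 0.0154% for EL against LG, 0.0269% for EL against MG, 0.0346% for W2 against LG and 0.554% for W2 against EL. With the compared stages fitted alone, 1 locus passed for W2 against PL and 1 for PL against MG. Under median ratio scaling the split for W2 against PL became 4 higher and 6 lower. For these alternative fits the share over all locus and gene sums is not given here, so nothing is read from their counts.

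MSTRG.11302.1, MSTRG.15883.1 and MSTRG.11301.1 passed no test between stages. MSTRG.11302.1 stayed within 2572 to 3922, with stage means of 2934 ± 326, 3539 ± 344, 2969.8 ± 128, 3159 ± 393 and 3334 ± 357 from MG to W2. MSTRG.15883.1 stayed within 222 to 289.8 and MSTRG.11301.1 within 265 to 439. Over the 10 comparisons the log2 fold change of MSTRG.11302.1 was between -0.25 and 0.27 with the smallest adjusted p at 0.554, and that of MSTRG.15883.1 between -0.07 and 0.21. In all, 17 of the 139 transcripts were at 200 or more in each of the 15 samples.

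Other transcripts differed widely between sows of a stage. The coefficient of variation within a stage, taken wherever the stage mean was 200 or more, had a median of 40.3% over the 139 transcripts and 13.5% over the 418 reference transcripts. Over locus sums it was 28.0%, against 11.9% over sums of reference genes. A value below 1 in one sample and 200 or more in another of the same stage was found in 34 of the 139 transcripts (24.5%), in 21 loci, and in 5 of the 418 reference transcripts (1.20%). It occurred in every stage, most often in PL (15 transcripts) and EL (11), then MG and W2 (9 each) and LG (8). Of the locus sums, 9 of 80 did so.

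In MSTRG.484 the division among isoforms differed between sows. Isoform 3 was at 1507, 726 and 2170.5 in MG, 996, 1295 and 8095 in LG, 8769, 1522 and 865 in EL, 0, 513 and 3555 in PL and 2079, 2589 and 1274 in W2. It was thus listed at 0 in PL 2 alone, where isoform 5 was at 808. Isoform 5 was otherwise above 0 only in LG 3 (1838) and EL 6 (22.6). Isoform 4 was at 1157, 653 and 1135 in MG and 13.2, 1424 and 527 in W2. The locus sum was never below 520, ranging from 520.4 to 10099.

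Other transcripts of this kind had no other MSTRG isoform of their locus in the table. Annotated transcripts of the same gene could not be looked for without positions. MSTRG.13709.1 was at 0, 1365 and 906 in EL, 0, 666 and 0 in W2 and 0 in all PL samples. MSTRG.1185.2 was at 589.8, 0.863 and 1338 in MG, 44.8, 1.68 and 1997 in LG and 1413, 1.61 and 1.56 in W2. MSTRG.13241.2 was at 0, 407 and 625 in W2 and listed at 0 in every other sample, and MSTRG.3895.3 was at 487, 378 and 0 in LG and 199 in MG 1 and at 0 elsewhere. In MSTRG.2021, isoforms 2 and 3 alternated, isoform 2 at 571, 631 and 747 in LG where isoform 3 was at 0 throughout, and isoform 3 at 0, 887 and 704 in MG where isoform 2 was at 3.65 or less.

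For each locus sum the nearest reference transcript was looked for among those with a mean of 10 or more. The highest r over the 15 samples was 0.9 or more for 46 of the 80 loci and 0.95 or more for 32, with a median of 0.921 and a lowest value of 0.674. In the RefSeq annotation of Sscrofa11.1, the build used for alignment, LALBA is at chr5:79214487-79216791, SAA3 at chr2:41021349-41025950 and TXNIP at chr4:99348589-99351760, while the assembled loci have no position in the table. For 11 loci the nearest transcript belonged to a cytosolic ribosomal protein gene. The best match of many is high by selection, and loci that shift with PL share that shift with very many transcripts. Among the highest were MSTRG.702 with B2M (r = 0.99), the light chain of class I molecules, and MSTRG.5701 with TXNIP (r = 0.989), a thioredoxin-binding protein. MSTRG.702, of whose isoforms number 5 was chosen (126, 311 and 217 in PL), summed to 194, 505 and 359 in PL and 238, 197 and 247 in EL, beside B2M at 265, 689 and 487 and 349.9, 298 and 369. MSTRG.5701 was at 312, 889.6 and 2052 in PL and 1138, 803 and 669 in W2, beside TXNIP at 257, 759 and 1697 and 885, 655 and 530.2.

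**Figure D5:**
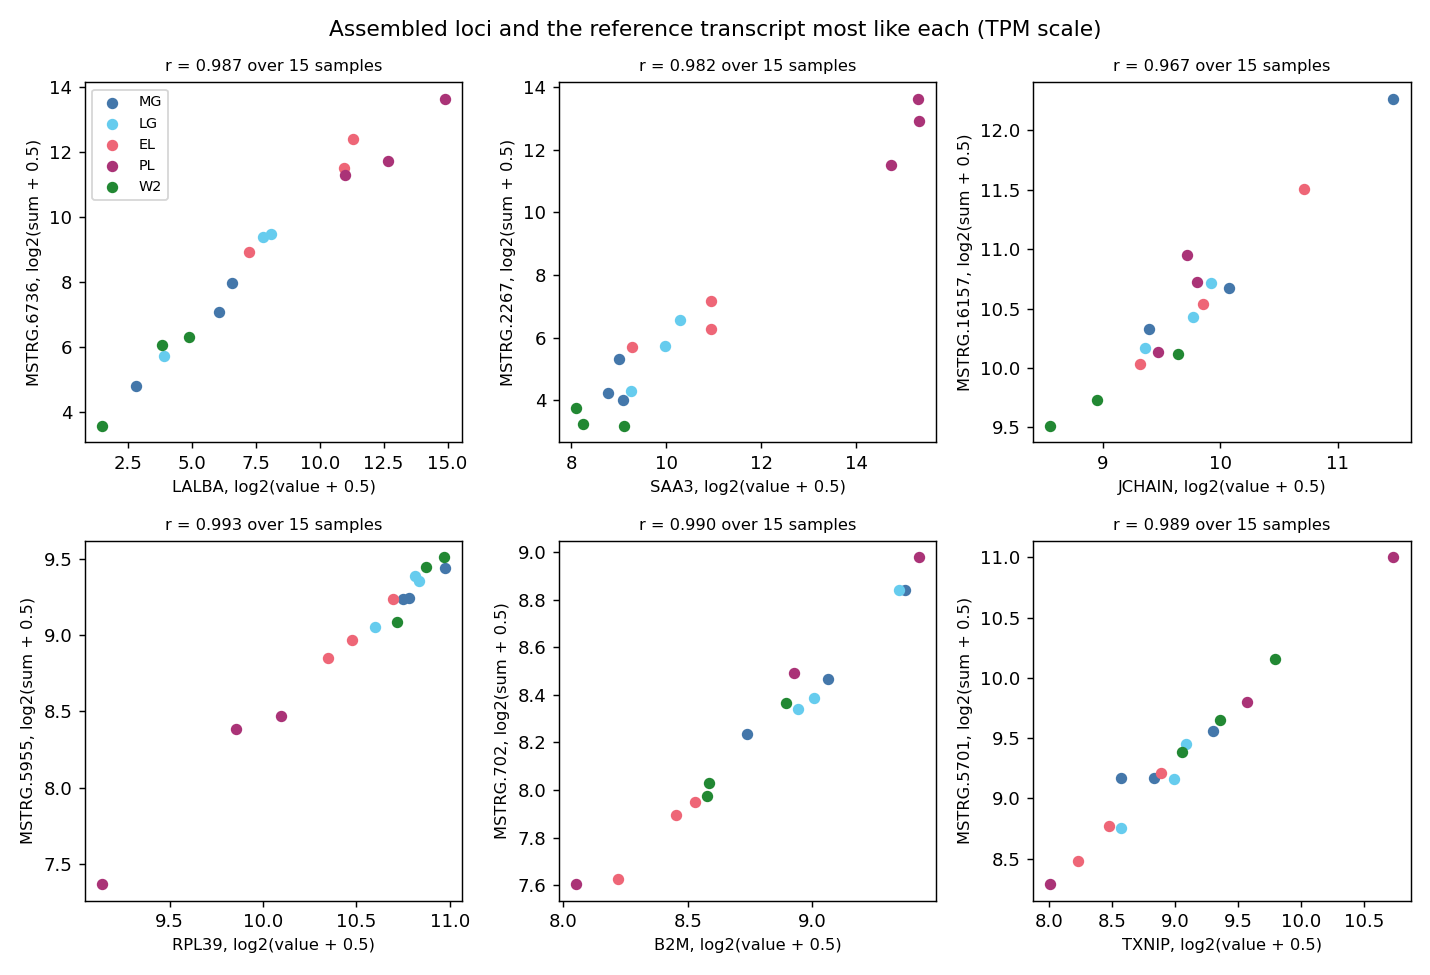
Locus sums of 6 assembled loci (y axis) against the reference transcript with the highest r (x axis), both as log2(value + 0.5) on the TPM scale, 1 point per counted sample coloured by stage. Points lie along a line in each panel, with r from 0.967 to 0.993. In the panel of SAA3 the 3 PL samples stand apart from the rest, while in those of B2M and TXNIP the PL samples lie at both ends of the line.

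Between loci, the closest pair was MSTRG.20020 and MSTRG.20198 (r = 0.998), at 563, 223 and 271 and 519.7, 203 and 246 in MG and 464, 271 and 212 and 413, 244 and 192 in PL. After MSTRG.12472 and MSTRG.5955 came MSTRG.9316 and MSTRG.15922 (r = 0.990), at 1629, 886 and 943 and 991, 532 and 598 in MG. MSTRG.20020 and MSTRG.20198 were highest in MG 1 and the other 2 in PL 2. Of the 4, 3 had LOC110258215 as the nearest reference transcript, while MSTRG.15922 had LOC102158335. Over all 3160 pairs the median r was 0.134, and it was over 0.9 for 87 pairs. For the 9 pairs whose numbers differed by 10 or less the median was 0.776, with MSTRG.5401 and MSTRG.5400 at 0.969 and MSTRG.16474 and MSTRG.16484 at -0.02.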

How the data were processed

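RNA was measured in 30 sow mammary samples, 6 per stage. Per the study's methods, the authors prepared libraries with the TruSeq RNA v2 kit, which does not mark strand. Read quality control used FastQC and Trimmomatic, alignment to Sscrofa11.1 used HISAT2 and SAMtools, and StringTie built the transcript models and estimated their levels. Transcripts at 0.5 or more in at least 1 stage were kept. The authors name the deposited unit FPKM, but every sample has the fixed total of TPM, and the values are used here as TPM. Whether a correction of unwanted variation (RUVs) is contained in them is not given in the sources used here. Reads of a model that overlaps an annotated transcript or its antisense strand cannot be told apart from that transcript's. The processed values hold no read counts. The study lists reads per library and names a count matrix, which are not used here, so no count test was run and no interval is given.

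Samples were grouped by their titles. The 3 samples per stage that are near copies of the mean of the others were left out, which leaves 15. All 61773 transcripts were fitted on log2(value + 0.5) in limma 3.58.1 (R 4.3.3) with a trend, the 5 stages in 1 fit and 10 comparisons. P-values were adjusted by Benjamini-Hochberg over all transcripts. A call requires an adjusted p below 0.05 and, where stated, a log2 fold change of at least 2. Fold changes are on the log2(value + 0.5) scale and understate changes of low values. P-values rest on the spread between the 3 sows within a stage, pooled over all 5 stages. In limma that spread is also drawn toward its trend over all transcripts. The scripts were tested on simulated data. Locus sums over all MSTRG isoforms of a locus in the table were fitted likewise, with sums of reference genes.

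Stage means of 200 or more chose the transcripts. A test of a named transcript or locus is therefore printed only where both compared stage means were 200 or more. For transcripts the mean of 15 samples had to reach 200 as well. Some counts of calls are also given where this does not hold, and nothing is read from them. All other values are descriptions. Likeness is Pearson's r of log2 values with reference transcripts at a mean of 10 or more. Named transcripts came from the 20 with the highest stage means, those called, up to 10 below 1 in one sample and at 200 or more in another of the same stage, all chosen isoforms of the 8 loci with most members, and the 3 on either side of the threshold. Further transcripts and loci, the locus likeness and the counts at 200 in both stages were chosen after the values were seen. The members and lists were chosen with earlier results of these data known. Alternatives were the pseudocount, a filter on low values, quantile and median ratio scaling, a replicate block, the compared stages alone, all 6 samples, the near copies as 1 further sample, locus sums, other thresholds and leaving out each sample. Python 3.11.15, pandas 2.3.3, numpy 2.4.6 and matplotlib 3.10.9 were used. The reference transcript nearest to 1 locus is not reported here.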

Additional observations from a re-analysis of the deposited data

How the results depend on the processing

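Counts are given in the order LG against MG, EL against MG, PL against MG, W2 against MG, EL against LG, PL against LG, W2 against LG, PL against EL, W2 against EL and W2 against PL. They count first transcripts with a mean over the 15 samples of 200 or more that were called (adjusted p below 0.05, log2 fold change at least 2, limma). Then come transcripts at 200 or more in both stages with adjusted p below 0.05, then loci of that kind, and last transcripts past the F test. The first and last counts include transcripts such as MSTRG.2267.1, whose mean reached 200 through PL alone, so nothing is read from them. As reported the counts were 0, 1, 10, 0, 0, 4, 1, 2, 2 and 15, then 0, 1, 6, 0, 0, 3, 1, 0, 1 and 11, then 0, 0, 13, 0, 0, 12, 0, 5, 0 and 12, and 17 for the F test. With all 6 samples the counts were 5, 11, 21, 4, 5, 22, 8, 12, 11 and 29, then 14, 18, 18, 9, 19, 18, 19, 10, 23 and 19, then 11, 22, 22, 13, 20, 22, 17, 19, 25 and 20, and 66 for the F test. With the near copies as 1 further sample the counts were 1, 5, 19, 0, 0, 18, 3, 8, 7 and 24, then 1, 7, 14, 0, 0, 9, 4, 4, 10 and 15, then 0, 7, 14, 0, 0, 15, 0, 9, 14 and 16, and 45 for the F test. With the compared stages alone the counts were 1, 0, 1, 0, 0, 0, 0, 0, 0 and 2, then 0, 0, 0, 0, 0, 0, 0, 0, 0 and 0, then 0, 0, 1, 0, 0, 0, 0, 0, 0 and 1. Under median ratio scaling the counts were 0, 0, 10, 0, 0, 2, 0, 2, 2 and 12, then 0, 0, 9, 0, 0, 2, 0, 1, 1 and 10, then 0, 0, 9, 0, 0, 7, 0, 6, 0 and 10, and 14 for the F test. Under quantile normalization the counts were 0, 1, 8, 0, 0, 2, 1, 2, 2 and 11, then 0, 1, 7, 0, 0, 1, 1, 0, 1 and 8, then 0, 0, 7, 0, 0, 7, 0, 5, 0 and 8, and 13 for the F test. With only transcripts at a mean of 1 or more the counts were 0, 1, 12, 0, 0, 8, 0, 2, 2 and 17, then 0, 1, 10, 0, 0, 4, 0, 0, 1 and 12, and 17 for the F test. With a pseudocount of 0.1 the counts were 0, 1, 10, 0, 0, 4, 1, 2, 1 and 15, then 0, 1, 6, 0, 0, 3, 1, 0, 1 and 11, then 0, 0, 13, 0, 0, 11, 0, 5, 0 and 12, and 16 for the F test. As locus sums, 0, 0, 7, 0, 0, 5, 0, 3, 1 and 7 loci were called and 18 passed the F test. Leaving out 1 sample gave 0 to 0, 0 to 1, 4 to 13, 0 to 0, 0 to 0, 3 to 5, 0 to 1, 1 to 3, 1 to 4, 8 to 19 called transcripts, then 0 to 1, 0 to 1, 2 to 8, 0 to 0, 0 to 0, 0 to 4, 0 to 1, 0 to 1, 1 to 3, 5 to 12, then 0 to 0, 0 to 3, 7 to 14, 0 to 0, 0 to 0, 6 to 12, 0 to 0, 1 to 7, 0 to 8, 10 to 12, and 8 to 19 for the F test. The lowest counts for W2 against PL (8 and 5) came without W2 3, those for PL against MG at 200 in both (2, and 7 loci) without MG 3, the 0 for PL against LG without LG 1 or LG 4, and the 8 loci for W2 against EL without PL 2. The number of transcripts chosen was 137 to 149 and that of on and off transcripts 29 to 34. Their share was 6.39% to 6.97% (MG), 6.42% to 6.55% (LG), 7.71% to 10.5% (EL), 10% to 13.3% (PL), 5.76% to 6.06% (W2). With a threshold of 100 the share was 7.62% (MG), 7.38% (LG) and 6.77% (W2), and with 400 it was 5.46%, 5.45% and 4.71%. Of the locus sums 9 were on and off. Under median ratio scaling, calls over all transcripts went from 1754 to 936 for W2 against PL. For PL against MG they went from 1086 to 741. For the other alternatives the share over all transcripts is not given here, so nothing is read from the counts. Each cause was not tested.

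Of 23 differences named with a test, 8 kept an adjusted p below 0.05 with each of the 15 samples left out. All 23 kept it with both pseudocounts and none with the compared stages alone. Median ratio scaling took the call from 9 of them, 1 with a change of sign, and quantile normalization from 5. The replicate block took it from 13 and the filter at a mean of 1 from 1. That block follows sample numbers, which were not taken as pairs, so its 13 say nothing of stability. Adding the near copies shrinks the spread by construction, so the higher counts with them say nothing of stability. MSTRG.19278.1 turned from higher to lower in W2 than in PL under median ratio scaling (log2 fold change -0.22).

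Sample numbers are shared between stages. Over 19 pairs with the same number, r of the deviations from stage means ranged from -0.14 to 0.17, with 7 over 0.1. Over 71 pairs with different numbers it ranged from -0.115 to 0.183, with 14 over 0.1, and MG 3 for one ran closest with LG 4. The numbers were therefore not taken as pairs. All pairs over 0.1 fell within sets of 1 sample per stage. The first was MG 1, LG 3, EL 4, PL 6 and W2 6. The next was MG 3, LG 4, EL 3, PL 3 and W2 3. The last was MG 6, LG 1, EL 6, PL 2 and W2 2. Within them r was 0.0553 (PL 6 with W2 6) to 0.183 (MG 1 with LG 3), and between them at most 0.0369 (LG 3 with PL 2). The fits as reported treat all samples as independent. No fit took these sets as a block, and what they share was not tested. With the replicate number as a block the counts were 0, 0, 3, 0, 0, 1, 0, 1, 0 and 12, then 0, 0, 0, 0, 0, 0, 0, 0, 0 and 10, then 0, 0, 5, 0, 0, 1, 0, 0, 0 and 13, and 4 for the F test. This block follows the numbers and not the sets above, and the share over all transcripts is not given here. Nothing is read from its counts.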
